A study of Mus musculus with 12 samples.

Results

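In mouse dorsal root ganglia, 3431 of 78381 loci of open chromatin (4.38%) were found in both lists of animals that lack the long noncoding RNA Silc1 and in neither list of wild-type animals. The study used ATAC-seq, in which a transposase cuts and tags DNA where chromatin is open, on the ganglia that hold the cell bodies of sensory neurons. It had 12 libraries, 3 in each of 4 groups: Silc1-/- mice after sciatic nerve injury, Silc1-/- mice after a sham operation, wild-type mice after injury, and wild-type mice after a sham operation. Injury was a crush of the nerve at mid-thigh, applied 2 times for 30 s, and each extraction pooled 6 ganglia of lumbar levels L4 to L6. The labels name purchased C57black6 Ola HSD males and locally bred strains, but give neither the age of the animals nor the time after injury. Each group is represented by 1 list of peak summits, the points of highest read density. Summits of the 4 lists that lay within 200 bp of their neighbour were chained into loci. Of the 3431 loci, 2620 (3.34% of all loci) had no wild-type summit within 1 kb, and 1797 (2.29%) had none within 10 kb. The loci were chosen by the presence and absence of summits in these lists, so these counts describe the lists and no test was made of them.

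Injury of a peripheral nerve starts a gene programme in the cell bodies of sensory neurons that lets the axon regrow. Silc1 is a long noncoding RNA known to take part in it, and lies on the same chromosome as Sox11, a transcription factor of regenerating neurons whose induction it promotes. Open chromatin marks promoters, which lie at gene starts, and enhancers, which can lie far from the gene they act on, inside it or inside a neighbour.

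The lists held 35815 summits for Silc1-/- injured, 48332 for Silc1-/- sham, 43841 for wild-type injured and 27279 for wild-type sham ganglia. The score of a summit is the −log10 of a p-value or q-value as the authors' peak caller gave it, and scores of different lists are not on a common scale. Read depth is unknown, and a list can be longer because its libraries were deeper. Of 20 sensory neuron marker genes, 7, 12, 9 and 8 had a summit within 1 kb of a gene end in the Silc1-/- injured, Silc1-/- sham, wild-type injured and wild-type sham lists. Of 12 markers of satellite glia and Schwann cells, 3, 5, 7 and 3 had one. Of 16 macrophage markers it was 1, 3, 3 and 2, and of 15 skeletal muscle genes it was 4, 4, 4 and 3. The part of cell composition or depth in the results was not tested. In whole tissue, fewer cells of a type and less accessibility per cell cannot be told apart.

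Some of the loci lay at gene starts, where the reference gives the sequence. Promoter windows from 250 bases before to 50 after a RefSeq start held 107 of the 3431 loci, in 121 windows (0.368% of 32851), and 55 of these loci, in 64 windows (0.195%), had no wild-type summit within 1 kb. Loci in both wild-type lists and neither Silc1-/- list lay in 172 windows (0.524%). In all, 37 of the promoter loci had no wild-type summit within 10 kb. The 250 bases before the start are printed for 6 genes, taken from the 10 strongest promoter loci with no wild-type summit within 1 kb. These are the coding genes whose higher summit lay before the start, with none of wild type within 10 kb. Among the 6 are 4 genes of neuronal function (Kcna4, Rims1, Srrm4 and Otud7a), and no share of such genes is read from so few. The printed bases are RefSeq sequences of GRCm38.p6, 5′ to 3′ on the strand of the gene. Capitals mark a match to one of the motifs named below them.
Kcna4, chr2:107290339-107290588, plus strand: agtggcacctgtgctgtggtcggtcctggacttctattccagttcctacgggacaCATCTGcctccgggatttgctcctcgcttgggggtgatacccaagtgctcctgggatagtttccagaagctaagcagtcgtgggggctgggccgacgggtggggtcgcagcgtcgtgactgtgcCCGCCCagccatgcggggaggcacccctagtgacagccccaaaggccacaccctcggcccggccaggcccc
Rims1, chr1:22806159-22806408, minus strand: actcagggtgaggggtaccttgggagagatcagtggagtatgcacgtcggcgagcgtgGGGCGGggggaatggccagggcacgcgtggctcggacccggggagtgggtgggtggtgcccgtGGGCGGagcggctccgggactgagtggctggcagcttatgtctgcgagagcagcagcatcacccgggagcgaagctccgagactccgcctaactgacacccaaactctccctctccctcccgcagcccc
Srrm4, chr5:116591818-116592067, minus strand: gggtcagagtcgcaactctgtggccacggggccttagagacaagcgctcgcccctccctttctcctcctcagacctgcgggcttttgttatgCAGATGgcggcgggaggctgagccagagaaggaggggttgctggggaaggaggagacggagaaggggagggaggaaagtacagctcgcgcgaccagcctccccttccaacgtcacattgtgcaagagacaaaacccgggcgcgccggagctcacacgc
Otud7a, chr7:63444522-63444771, plus strand: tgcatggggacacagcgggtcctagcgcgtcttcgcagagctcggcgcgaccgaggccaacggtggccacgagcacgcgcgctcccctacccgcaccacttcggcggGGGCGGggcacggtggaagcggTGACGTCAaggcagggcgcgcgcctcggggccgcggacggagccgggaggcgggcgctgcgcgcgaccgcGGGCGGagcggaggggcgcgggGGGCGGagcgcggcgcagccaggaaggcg
Pde4dip, chr3:97888708-97888957, minus strand: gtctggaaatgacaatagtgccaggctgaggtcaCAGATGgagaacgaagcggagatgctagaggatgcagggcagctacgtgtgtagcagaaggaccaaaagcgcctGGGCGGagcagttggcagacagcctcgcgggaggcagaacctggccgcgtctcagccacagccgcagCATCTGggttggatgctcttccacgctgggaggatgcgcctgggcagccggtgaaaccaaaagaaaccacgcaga
Adprhl1, chr8:13254163-13254412, minus strand: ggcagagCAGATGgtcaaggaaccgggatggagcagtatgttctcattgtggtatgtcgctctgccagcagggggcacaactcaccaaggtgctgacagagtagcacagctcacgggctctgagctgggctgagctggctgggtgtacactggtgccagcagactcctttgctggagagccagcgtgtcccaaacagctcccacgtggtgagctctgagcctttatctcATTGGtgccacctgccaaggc

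In the promoter of Kcna4, the gene of a rapidly inactivating potassium channel, the higher of the Silc1-/- summits lay 27 bases before the start. Its scores were 4.39 in the Silc1-/- injured and 8.15 in the Silc1-/- sham list, and the nearest wild-type summit was 18198 bp away. Rims1, a scaffold of the presynaptic active zone, had a summit 55 bases before its start with scores of 9.42 injured and 4.29 sham and no wild-type summit for 67843 bp. Srrm4, a splicing factor that includes neuronal microexons, had one 92 bases before its start, with scores of 4.31 and 3.86 in the Silc1-/- injured and sham lists and 168677 bp to the nearest wild-type summit. These 3 promoters lay far from any wild-type summit although their scores were modest. Otud7a, a deubiquitinase gene, had its summit 42 bases before the start (5.58 injured, 4.70 sham, 156217 bp to wild type), in a window shared with the start of the noncoding gene 4930554H23Rik. Pde4dip, which anchors phosphodiesterase at the Golgi and centrosome, had its summit 31 bases before the start, with scores of 5.08 injured and 5.67 sham. Adprhl1, an ADP-ribosylhydrolase-like gene, had scores of 7.33 injured and 7.18 sham, the highest lower score of the promoters with no wild-type summit within 1 kb, also before its start.

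The GC content of the 6 printed promoters was 78.8% in Otud7a, 68.0% in Rims1, 65.2% in Kcna4, 63.2% in Srrm4, 60% in Pde4dip and 58.8% in Adprhl1. They held between 5 CpG dinucleotides, in Adprhl1, and 44, in Otud7a, against a median of 6 in all promoters. Over all 121 promoters with such a locus, the 250 bases before the start had a median GC content of 58.4%, against 62.0% for the 5712 promoters with a locus in all 4 lists and 52.4% for all promoters. For the 64 with no wild-type summit within 1 kb it was 57.0%. The promoters of these loci thus stood between commonly open promoters and the whole set. So did the 172 promoters with a locus in both wild-type lists only, with a median of 60.8%. The GC box GGGCGG, read on both strands, stood in 44.6% (95% Wilson interval 36.1 to 53.5) of the 121 promoters, against 69.2% of promoters with a locus in all 4 lists and 32.7% of all promoters. The interval covers counting error only. In promoters with a locus in both wild-type lists only the share was 54.7%. The neuronal E-box CAGATG stood in 14 of the 121 promoters (11.6%, 7.02 to 18.5) and in 12 of the 64 with no wild-type summit within 1 kb (18.8%, 11.1 to 30.0). The 14.4% of all promoters lies between these shares and inside both intervals. The CRE core TGACGTC stood in 5 of the 121 (4.13%, 1.78 to 9.31) and 4 of the 64 (6.25%, 2.46 to 15), against 2.78% of all promoters, also inside both intervals. In Otud7a it was counted 2 times because its reverse complement overlaps it in a palindrome. The AP-1 motif TGACTCA or TGAGTCA stood in 2 of the 121 promoters (1.65%, 0.454 to 5.83), against 4.46% of all promoters. Over the 121 promoters, the shares for the other motifs searched were 36.4% for CCAAT (33.8% of all promoters), 8.26% for the ETS letters CCGGAAG (6.91%) and 10.7% for the Sox letters ACAAAG (16.5%). In promoters with a locus in all 4 lists, the E-box stood in 8.35%, the CRE core in 6.18% and AP-1 in 2.56%. CCAAT stood there in 42.9%, the ETS letters in 17.3% and the Sox letters in 9.37%. For both wild-type lists only, the same shares were 12.2%, 2.33%, 4.07%, 19.8%, 9.30% and 11.6%. For AP-1 and Sox both sets lay below all promoters, as the 121 did. A match of letters is not a bound site.

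At the joining distance of 200 bp, wild-type summits were distant from most of the loci. The median distance to the nearest wild-type summit was 11345 bp. In the mirror class, 1867 loci (2.38% of all loci) in both wild-type lists and neither Silc1-/- list, the median distance to the nearest Silc1-/- summit was 3429 bp. No summit of the other genotype lay within 1 kb of 76.4% (74.9 to 77.8) of the Silc1-/- loci and 62.6% (60.4 to 64.8) of the wild-type loci. At 10 kb the shares were 52.4% (50.7 to 54.0) and 32.1% (30.1 to 34.3). A distance also depends on how many summits the other genotype has, and the Silc1-/- lists together hold more. The difference in distance between the classes was not checked at equal list lengths. With a joining distance of 50 bp, 1383 of 3268 Silc1-/- loci had no wild-type summit within 1 kb and 942 had none within 10 kb. At that setting most of the loci thus had a wild-type summit within 1 kb. By distance, 330 of the Silc1-/- loci had a wild-type summit at over 200 to 300 bp, 823 at over 1 to 10 kb, 1169 at over 10 to 50 kb and 257 at over 100 kb. The ratio of Silc1-/- to wild-type loci was 1.84 with the lists as deposited, which together hold more Silc1-/- summits. It turned to 0.899 when each list was reduced to its 27279 highest-scoring summits, and to 0.891 with summits of a score of at least 5. The larger number for Silc1-/- did not hold at equal list lengths.

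**Figure D1:**
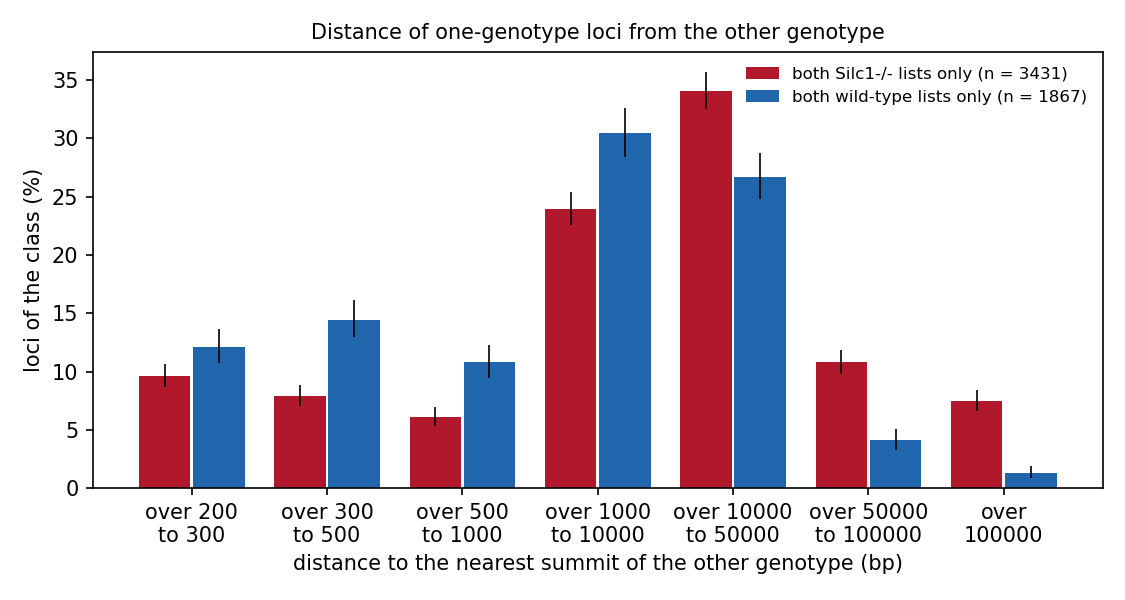
Distance from each locus to the nearest summit of the other genotype, in classes of distance, as a percent of the loci of the class with 95% Wilson intervals (counting error only), for loci in both Silc1-/- lists only and loci in both wild-type lists only. With the lists as deposited, the Silc1-/- loci are the more distant class, with a median of 11345 bp against 3429 bp. The Silc1-/- lists together hold more summits, and the distances were not compared at equal list lengths.

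Of the 811 loci with a wild-type summit within 1 kb, 420 had one of both wild-type lists there, 308 of wild-type injured only and 83 of wild-type sham only. At 409 of them (50.4%) the nearest wild-type locus held no Silc1-/- summit, so that the genotypes had separate summits side by side. At 213 (26.3%) it held summits of both Silc1-/- lists as well. The limit of 200 bp divides a continuous range. Just inside it, at 201 bp, lay loci near Rala (1.38 injured, 3.63 sham), 8 bp from an end of Pfdn6 (3.36, 7.33) and near Rab27b (1.91, 3.63). Just outside, at 200 bp, lay loci near Gm41257 (6.55, 8.73), near Gm17308 (3.09, 7.94) and in Syt11 (4.89, 5.43). In all, 210 loci had their nearest wild-type summit at over 200 to 250 bp, and 251 loci with both Silc1-/- lists were joined to a wild-type summit over 150 to 200 bp away.

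By their medians, the loci scored below the middle of their own lists, by little in the sham list. Their median score was 3.71 in the Silc1-/- injured list, at percentile 34.7 of that list, and 4.29 in the Silc1-/- sham list, at percentile 46.3. Loci in all 4 lists had medians of 9.39 and 13.1 there. A score of at least 10 was reached by 139 loci (4.05%) in the injured and 223 (6.5%) in the sham list, against 46.5% and 62.0% of loci in all 4 lists. Loci of only the injured or only the sham Silc1-/- list had medians of 3.09 and 3.03, so presence in both lists went with slightly higher scores than presence in 1 of them. The lower of the 2 scores reached 10 at 90 loci, of which 78 had a wild-type summit within 1 kb, 4 had one at over 1 to 10 kb and 8 had none within 10 kb. Most strong loci were next to wild-type summits.

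The injured and the sham summit of a locus lay a median of 49 bp apart, against 41 bp at loci in all 4 lists, and within 50 bp of each other at 51.4% against 57.7%. The joining distance of 200 bp itself bounds this offset where a locus holds only these 2 summits, as 97.0% did. Spearman's rho between the injured and the sham score was 0.24 over the 3431 loci, 0.16 over the 1797 with no wild-type summit within 10 kb, and 0.73 over the 14347 loci in all 4 lists. The points of each share a pair of lists, and the narrow range of low scores limits the value. Scores repeated exactly: 452 loci (13.2%) had 3.08864 in the injured list and 333 (9.71%) had 3.01143 in the sham list. The injured score was the higher at 1478 loci and the sham score at 1953, against 4006 and 10341 of the loci in all 4 lists. Depth may differ between the lists and nothing is read from this order.

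**Figure D2:**
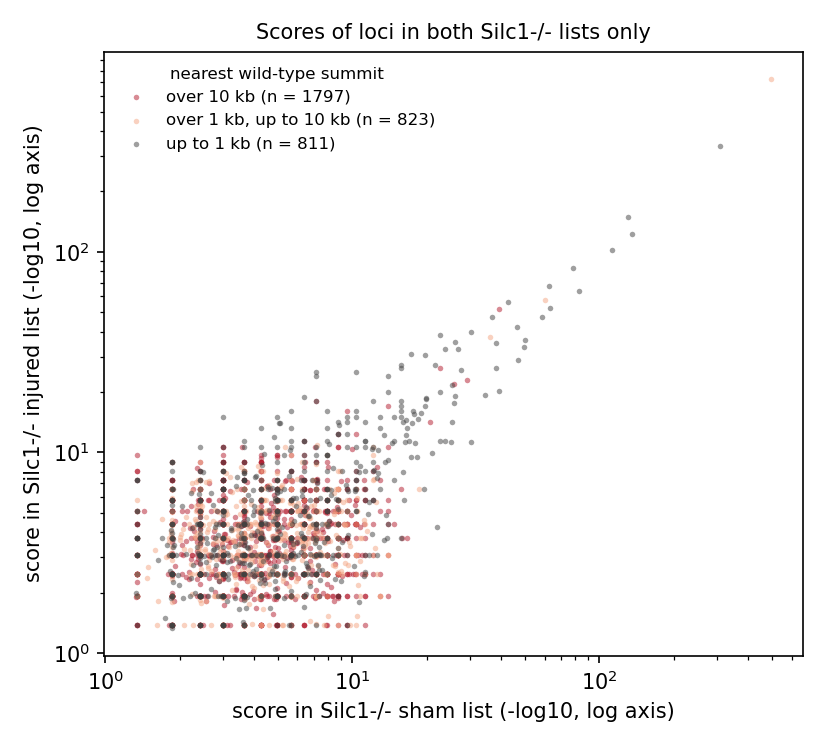
Score of each of the 3431 loci in the Silc1-/- injured list (vertical) and the Silc1-/- sham list (horizontal), both −log10 on log axes, coloured by the distance to the nearest wild-type summit. Of the 90 loci with both scores at least 10, 78 have a wild-type summit within 1 kb, and repeated scores appear as rows and columns of points.

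Within 1 kb of either end of an annotated gene were 441 of the 3431 (12.9%, 11.8 to 14.0), against 25.2% (23.3 to 27.2) of loci in both wild-type lists only, 55.6% of loci in all 4 lists and 24.2% of all loci. Loci in both injured lists only were close, with 14.7% (13.3 to 16.3), and loci in both sham lists only had 24.1%. Pairs of Silc1-/- sham with wild-type injured had 19.9%, and of Silc1-/- injured with wild-type sham 20.4%. A low share was thus not particular to the Silc1-/- pair. With a joining distance of 50 bp the share for the Silc1-/- loci was 21.5%. Loci of the Silc1-/- injured or sham list alone had 12.8% and 12.3%, close to the share of the loci in both. Within 1 kb of a promoter start the share was 9.68%, against 21.0% of loci in both wild-type lists only. Another 47.4% lay inside a gene over 1 kb from its ends, and 39.7% outside genes. Over 50 kb from any gene end were 25.8% of them, and 30.9% of those with no wild-type summit within 10 kb, against 18.9% of all loci. It was 25.5% of loci in both injured lists only and 14.4% of loci in both wild-type lists only. The share at gene ends was 28.4% for loci with a wild-type summit within 1 kb, 9.72% for those with one at over 1 to 10 kb and 7.29% for those with none within 10 kb. Loci were also binned by their lower score. The lists are not on a common scale, with medians of 4.77 and 4.97 for Silc1-/- and 5.72 and 6.33 for wild type in the injured and sham lists. Equal bins thus need not hold loci of like strength. The share was 10.4% (8.91 to 12.1) against 19.6% (16.1 to 23.6) of the wild-type class at scores below 2.5. It was 15.2% (13.2 to 17.4) against 24.1% (21.1 to 27.3) from 2.5 to 4. From 4 to 6 it was 11.8% (9.43 to 14.6) against 30.7% (26.7 to 35.0). The intervals overlapped from 6 to 10 (15.3%, 10.4 to 22.0, against 28.0%, 21.7 to 35.4) and from 10 up (24.4%, 16.7 to 34.2, against 27.1%, 18.1 to 38.5).

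The loci inside genes sat in long genes. Of 1687 inside protein-coding genes, 983 (58.3%, 55.9 to 60.6) lay in genes of over 100 kb, and the median length of the gene was 131 kb. With no wild-type summit within 10 kb the share was 69.5% (66.4 to 72.5). It was 37.8% (34.9 to 40.9) for loci in both wild-type lists only, 27.4% for loci in all 4 lists and 44.4% for all loci. The Silc1-/- injured and sham lists alone had 50.2% and 55.3%. With lists of equal length it was 56.9%.

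**Figure D3:**
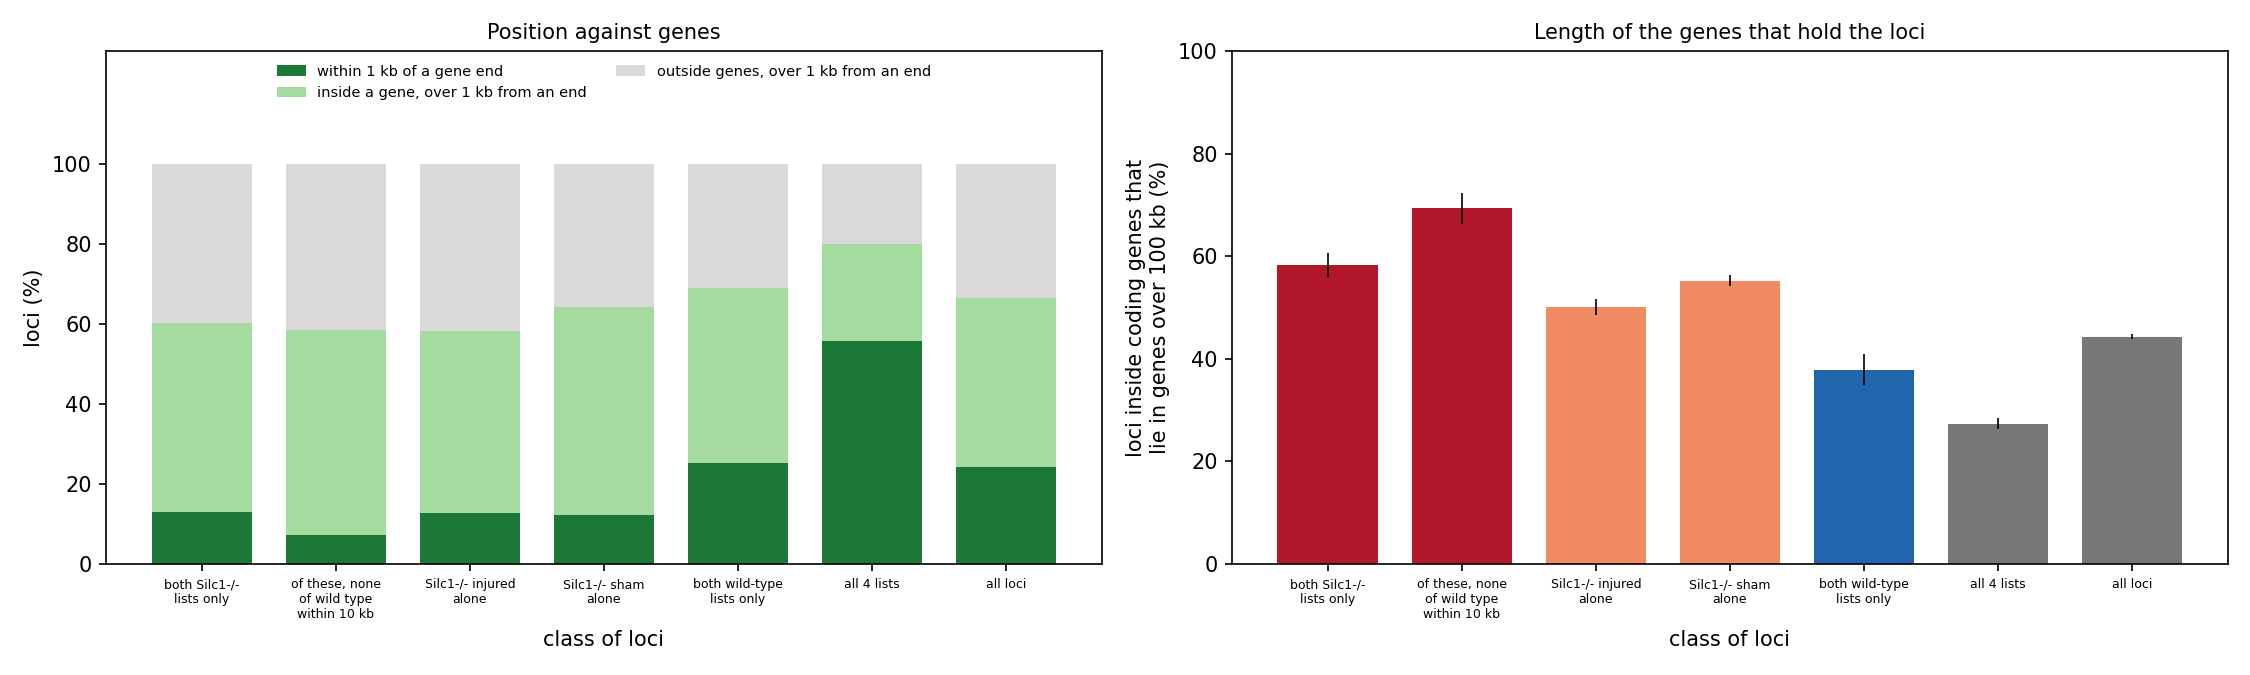
Left, percent of loci within 1 kb of a gene end, inside a gene and outside genes, by class of locus. Right, percent of the loci inside protein-coding genes that lie in genes of over 100 kb, with 95% Wilson intervals (counting error only). Loci in both Silc1-/- lists only have 12.9% at gene ends and 58.3% in long genes, against 25.2% and 37.8% for loci in both wild-type lists only. Loci in both injured lists only, not drawn, have 14.7% at gene ends.

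A total of 1418 protein-coding genes held at least 1 of the loci, and 41 held 3 or more. The genes with most, looked up after the counts were known, were Cntnap2, Nckap5 and Ptprn2 with 5 each. Cntnap2, an adhesion protein that gathers potassium channels beside the nodes of Ranvier, spans 2241 kb and held 42 loci in all. Ptprn2, a protein of dense-core vesicles, held 26 loci in all, and Nckap5 held 16. Galnt17, Kcnip4, Rbfox1 and Tenm4 held 4 each. Kcnip4 binds Kv4 potassium channels, Rbfox1 is a neuronal splicing factor, and Tenm4 is a teneurin, a synaptic adhesion protein. No locus of the wild-type class lay in Nckap5, Kcnip4 or Rbfox1, and 1 lay in each of Cntnap2, Ptprn2, Galnt17 and Tenm4.

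Some loci with no wild-type summit within 10 kb were strong. The highest lower score was at chr18:7033761 in the noncoding gene Gm46633, with 52.1 in the Silc1-/- injured and 39.3 in the Silc1-/- sham list. The nearest wild-type summit was 28736 bp away, and the nearest coding gene was Mkx, a homeobox factor of tendon, at 28982 bp. The next were intergenic, 37252 bp from the noncoding gene Gm35517 on chromosome 14 (23.0 injured, 29.0 sham) and 161733 bp from Cpxcr1 on the X chromosome (26.2 injured, 22.7 sham). All 3 had scores above 20 in both Silc1-/- lists. Near genes of known role, a locus 7260 bp inside Wdr72 on chromosome 9 had scores of 14.2 injured and 20.6 sham, with 146567 bp to the nearest wild-type summit. A locus 1962 bp from Peg10, an imprinted gene of retrotransposon origin, had 17.0 injured and 13.9 sham and lay 13162 bp from wild type. A locus in Galnt17, a glycosyltransferase of the family that starts mucin-type chains, had 10.4 injured and 9.98 sham. A locus at chr18:37218310 lay 29413 bp from an end of Pcdha6, a gene of the protocadherin alpha cluster, which encodes neuronal adhesion proteins. It was inside the long coding entry Gm38667, with 10.6 injured and 13.9 sham and 74229 bp to wild type. The other 3 of the 10 strongest lay near the noncoding genes Gm41439, Gm46796 and Gm38573, with lower scores between 9.55 and 22.0.

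At ends of protein-coding genes with no wild-type summit within 1 kb, the strongest after Adprhl1 lay 142 bp from Rhbg, an ammonium transporter (7.14 injured, 7.17 sham, 54169 bp to wild type). Gpr160, an orphan receptor, had one 785 bp from an end (6.55 injured, 9.55 sham). A locus 157 bp from Pcdhac1, another protocadherin of the alpha cluster, had 5.80 injured and 8.73 sham and lay 53833 bp from wild type. Gpr37l1, a receptor of glia, had a summit 22 bases after its start with 6.85 injured and 5.21 sham, 8839 bp from wild type. The rest of the 10 were near Rcn3, Mr1, Popdc3, Elmod3 and Odf3l2, with scores from 5.17 to 8.82. These 10 had lower scores than the 10 strongest loci with no wild-type summit within 10 kb. Those were drawn from a larger set and were not all far from genes, so nothing is read from the difference.

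Other promoters with a locus and no wild-type summit within 1 kb were those of Chp2 (5.08 injured, 6.40 sham, 5 bases after the start), the noncoding Pitpnm2os1 (5.08, 5.09) and Ptn (5.80, 4.29, 29 bases after the start). Ptn encodes pleiotrophin, a growth factor for neurites, and its locus lay 8990 bp from wild type. Stronger promoter loci had a wild-type summit close by. Ensa, an inhibitor of a mitotic phosphatase, had scores of 28.9 injured and 46.7 sham, 122 bases before the start and 416 bp from a wild-type summit. Ing1, a reader of histone methylation, had 21.6 injured and 25.3 sham at 222 bp from wild type. At these promoters both genotypes had a summit, not far apart.

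Genes of ion channels and receptors of sensory neurons had such loci in a larger share than coding genes as a whole. Of all 21896 protein-coding genes, 18.4% had a locus of the Silc1-/- class at most 50 kb from an end, and 7.55% had one with no wild-type summit within 10 kb. For the class in both wild-type lists only, the shares were 14.8% and, with no Silc1-/- summit within 10 kb, 4.28%. Of 32 channel and receptor genes, 13 had a locus of the Silc1-/- class and 11 (34.4%) had one with no wild-type summit within 10 kb. The wild-type class gave 4 and 0 of the 32. These genes are long, with a median of 148 kb, and 15.9% of all coding genes of over 100 kb had a locus of the Silc1-/- class with no wild-type summit within 10 kb, against 4.79% of those up to 20 kb. Of 231 loci near the channel genes, 16 were of the Silc1-/- class (6.93%, 4.31 to 11), an interval that only just includes the 4.38% of all loci. With equal list lengths 8 of the 32 genes had one (5.47% of all coding genes), with a joining distance of 50 bp 6 (4.18% of all), with a neighbourhood of 10 kb 3 (1.74% of all), and with scores of at least 5, 2 of the 32 (3.11% of all).

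Potassium channels led the list. Kcnq3, a subunit of the M channel that limits repeated firing, had a locus at chr15:65987446, inside the gene 1072 bp from an end, with 5.08 in the Silc1-/- injured and 5.67 in the Silc1-/- sham list and 46630 bp to wild type. Near Kcna1 and in Kcna2, genes of channels found beside the nodes of Ranvier, the scores were 4.39 injured and 8.55 sham, and 3.33 injured and 6.31 sham. Kcnd3, an A-type channel, had 2 loci, the stronger with 3.73 injured and 8.80 sham. Among calcium channels, a locus in Cacna2d2, an auxiliary subunit, had 4.66 injured and 5.30 sham, and one 10.4 kb from Cacna1h, a T-type channel, had 5.80 injured and 3.01 sham. Of the receptors, Oprd1, the delta opioid receptor, had a locus 11.2 kb outside with 4.37 injured and 5.66 sham, and Gabra2, a GABA-A receptor subunit, had one inside with 6.55 injured and 3.01 sham. Trpa1, an irritant receptor, had one 34.5 kb outside with 3.09 injured and 2.42 sham. Scores at these loci ran from below both medians of the class, at Trpa1, to well above its sham median, at Kcna1 and Kcnd3.

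The potassium channels were then counted as a family, a choice made after the list was seen. Of 94 coding genes with symbols that start with Kcn, which include accessory subunits, 31 (33.0%) had a locus of the Silc1-/- class and 23 (24.5%, 16.9 to 34.0) had one with no wild-type summit within 10 kb. The wild-type class gave 7 and, with no Silc1-/- summit within 10 kb, 1. The median length of these genes was 32.7 kb. Their 35 distinct loci made up 5.66% (4.1 to 7.77) of the 618 loci near them, an interval that includes the 4.38% of all loci. Those with no wild-type summit within 10 kb, 26 of the 618, made up 4.21% (2.89 to 6.09), against 2.29% of all loci. That interval lies above 2.29%, in a family chosen after the list was seen. The 8 loci of the wild-type class made up 1.29% (0.657 to 2.53) of the 618, against 2.38% of all loci. The 23 genes covered several branches, among them Kcnb2, Kcnc1 and Kcnc4 of the delayed rectifier and fast-spiking channels, Kcnj6 and Kcnj13 of the inward rectifiers, Kcnk3, Kcnk13 and Kcnk15 of the leak channels, and Kcnn2 of the calcium-activated channels. Near Kcnn2 the locus lay 361 bp outside the gene, with 4.39 injured and 3.63 sham and 52875 bp to wild type. Inside Kcnj6, 186 bp from an end, it had 3.09 injured and 3.01 sham. With equal list lengths 14 of the 94 genes had such a locus (14.9%, against 5.47% of all coding genes). With a joining distance of 50 bp it was 11 (11.7%, against 4.18%), and with a neighbourhood of 10 kb also 11. With scores of at least 5 it was 5 of them (5.32%, against 3.11%). Other families, looked up in the same way, gave 4 of 26 calcium channel genes (Cacn, 15.4%), 3 of 19 GABA-A receptor genes (Gabr, 15.8%), 1 of 19 ionotropic glutamate receptor genes (5.26%), 5 of 17 synaptotagmin genes (Syt, 29.4%), 5 of 44 collagen genes (Col, 11.4%) and 28 of 400 zinc finger genes (Zfp, 7%). In the same order, the wild-type class with no Silc1-/- summit within 10 kb gave 1, 1, 0, 2, 1 and 16 genes. The shares of all coding genes were 7.55% for the Silc1-/- and 4.28% for the wild-type class.

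Genes of the synapse and of vesicle release had a locus of the Silc1-/- class in 10 of 30 (33.3%), and with no wild-type summit within 10 kb in 6 (20%). The shares of all coding genes were 18.4% and 7.55%. The wild-type class gave 4 and 0. These genes are long too, with a median of 88.2 kb and 14 of the 30 over 100 kb. Of 259 loci near them, 13 were of the Silc1-/- class (5.02%, 2.96 to 8.40), an interval that includes the 4.38% of all loci. Beside Rims1, the 6 genes included Slc17a6, the vesicular glutamate transporter of these neurons, with 2 loci inside the gene at 50176 and 76688 bp from wild type. Their scores were 3.09 injured and 5.67 sham, and 5.08 injured and 3.01 sham. Sv2b, a synaptic vesicle protein, had 2 loci inside, of which the one 248 bp from an end had 2.48 injured and 3.01 sham. The strongest of the list, 18.6 kb from Rab3a, a GTPase of synaptic vesicles, had 14.2 injured and 16 sham but lay 475 bp from a wild-type summit. Sv2c had a summit 16 bp inside its end with 3.53 injured and 6.26 sham, 1330 bp from wild type. With equal list lengths, 3 of the 30 genes (10%) had a locus with no wild-type summit within 10 kb, against 5.47% of all coding genes.

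**Figure D4:**
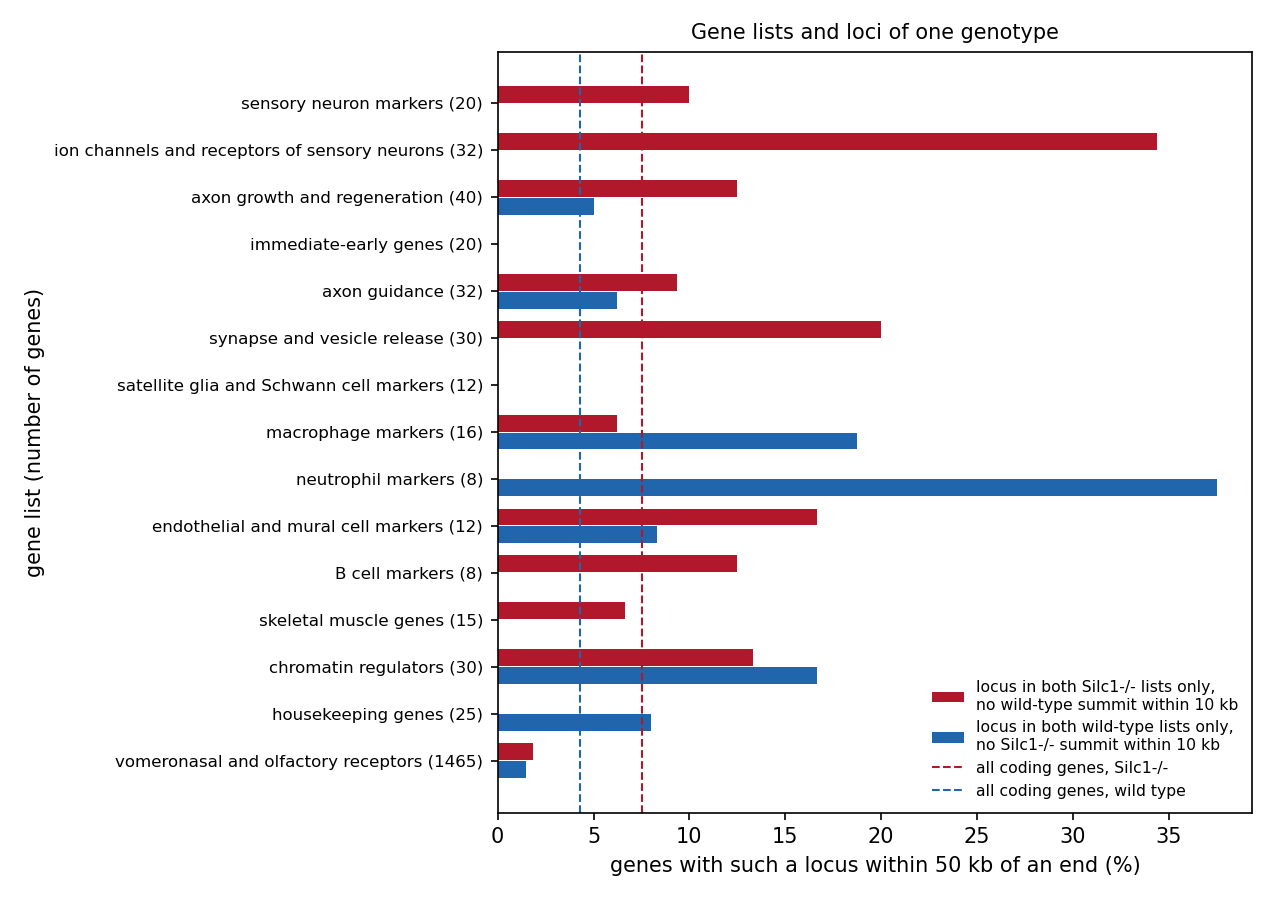
Percent of the genes of each list that have, at most 50 kb from an end, a locus in both lists of 1 genotype and over 10 kb from any summit of the other, for Silc1-/- and for wild type. Dashed lines give the share of all protein-coding genes, 7.55% for Silc1-/- and 4.28% for wild type. Ion channels and receptors reach 34.4% for Silc1-/-.

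Of 20 sensory neuron markers, 6 (30%) had a locus of the Silc1-/- class, against 18.4% of all coding genes, and 2 (10%) had one with no wild-type summit within 10 kb, against 7.55%. The wild-type class gave 0, in a list of 20 genes. These 2 were Scn9a, the sodium channel Nav1.7 of pain-sensing neurons, and Ntrk3, the receptor of neurotrophin 3. Scn9a had 3 loci, of which one 27.1 kb outside the gene had 4.39 injured and 3.63 sham. Another, inside the gene, had 2.48 injured and 11.2 sham, and the one shared with the neighbouring Scn1a had 2.48 and 1.87. Prrxl1, a transcription factor of pain-sensing neurons, had a locus inside with 3.12 injured and 5.27 sham, 3303 bp from wild type.

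Genes of axon growth and regeneration were nearer to the background. Of 40, 9 had a locus of the Silc1-/- class (22.5%) and 5 had one with no wild-type summit within 10 kb (12.5%), while the wild-type class gave 6 and 2. Near Arg1, arginase 1, which promotes axon growth through polyamines, the locus lay 42.9 kb outside with 4.39 injured and 8.73 sham. In Map1b, a microtubule-binding protein of growing axons, it had 4.65 injured and 4.28 sham, and in Dclk1, a microtubule-associated kinase, 3.09 and 5.77. Klf9, a repressor of axon growth, had one inside with 5.08 injured and 1.44 sham. Of 20 immediate-early genes, which neurons switch on within minutes of activity or injury, 3 had a locus of the Silc1-/- class and 0 had one far from wild type, while the wild-type class gave 5 and 0. The 3 were near Maff (4.77 injured, 4.29 sham), Junb (3.09, 7.16) and Jund (3.67, 2.02), all 7241 to 8824 bp from wild type. Of 32 axon guidance genes, whose median length is 300 kb, 7 had a locus of the Silc1-/- class and 3 had one far from wild type, while the wild-type class gave 5 and 2. They included Sema6d, a semaphorin, with 4.19 injured and 4.54 sham, and the netrin receptor Unc5a and the ligand Slit1 nearer to wild type.

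Lists of other cell types gave small counts, in lists of 8 to 16 genes. Glial and Schwann cell markers had a locus of the Silc1-/- class in 4 of 12 and far from wild type in 0, against 1 and 0 for the wild-type class. They included Kcnj10, the potassium channel of satellite glia, the myelin gene Mbp, and Fabp7, a fatty acid binding protein. Macrophage markers had 2 of 16, near Cd68 (4.60 injured, 11.2 sham) and Mrc1 (5.80, 3.01), against 5 for the wild-type class. Neutrophil markers had 0 of 8, against 3 for the wild-type class. Far from the other genotype, macrophage markers had 1 against 3 for the wild-type class, and neutrophil markers 0 against 3. The 3 neutrophil genes were counted from only 2 loci. The shares of all coding genes far from the other genotype were 7.55% for the Silc1-/- and 4.28% for the wild-type class. Endothelial and mural markers had 2 of 12 against 3, and far from the other genotype 2 (16.7%) against 1. B cell markers had 1 of 8 (12.5%), far from wild type, against 0 for the wild-type class. Skeletal muscle genes had 2 of 15 against 2, and far from the other genotype 1 (6.67%) against 0. Among 30 chromatin regulators the Silc1-/- class gave 5 and, far from wild type, 4, while the wild-type class gave 9 and 5. Crebbp, a histone acetyltransferase, had one inside with 8.10 injured and 4.29 sham, 31378 bp from wild type. Of 25 housekeeping genes the Silc1-/- class gave 6 and, far from wild type, 0, while the wild-type class gave 7 and 2. Of 1465 vomeronasal and olfactory receptor genes, which ganglia are not known for, 74 (5.05%) had a locus of the Silc1-/- class, against 62 for the wild-type class. Neighbouring genes shared loci, and the 74 genes were counted from 35 loci and the 62 from 33. The 35 made up 3.66% (2.64 to 5.05) of the 956 loci near these genes, an interval that includes the 4.38% of all loci.

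No list had a summit in the deleted gene itself. Gm9866, the RefSeq gene taken here as Silc1 from general knowledge, spans chr12:27140796-27160516, so the genotype labels could not be checked from it. The nearest summit was 82.5 kb away in the Silc1-/- injured, 22.6 kb in the Silc1-/- sham, 82.7 kb in the wild-type injured and 82.1 kb in the wild-type sham list. A locus of the Silc1-/- class lay between it and Sox11, at chr12:27242927 in the sham list (22.7) and chr12:27242985 in the injured list (19.9), 91.3 kb from Sox11. It belongs to the class only narrowly. A wild-type injured summit with a score of 22.2 lay 204 bp from it and a wild-type sham summit with a score of 13.8 lay 344 bp from it on the other side. All 4 groups thus had a summit within this stretch, and the class separates their positions and not presence.

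Within 1 Mb of Gm9866, 6 of 48 loci (12.5%, 5.86 to 24.7) were of the Silc1-/- class and 0 of the wild-type class, and within 5 Mb it was 13 of 313 (4.15%, 2.44 to 6.98). Of the 6, 3 had no wild-type summit within 10 kb. These lay 37.5 kb from Cmpk2, an interferon-induced nucleotide kinase (4.39 injured, 6.40 sham), 1746 bp from the noncoding gene Gm30350 (3.73 injured, 8.73 sham, 277252 bp to wild type) and inside the noncoding Gm4166 (1.91 injured, 3.63 sham). The locus 2311 bp from Rnf144a, a ubiquitin ligase, had 3.72 injured and 3.54 sham and lay 884 bp from wild type. The interval at 1 Mb lies above the 4.38% of the whole set and the interval at 5 Mb includes it. The count at 1 Mb takes in loci 204, 474 and 884 bp from a wild-type summit, the first being the one beside Sox11. With no wild-type summit within 10 kb it was 3 of 48, and within 5 Mb 7 of 313, against 2.29% of all loci. No excess around the gene is read from so few.

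The loci were spread over the genome. They made up between 3.55% (2.97 to 4.23) of the loci of chromosome 17 and 5.56% (4.74 to 6.51) of those of chromosome 18 among the autosomes, 3.97% (3.26 to 4.83) of those of the X chromosome, and 5 of 253 on Y. Another 14 lay on unplaced or mitochondrial sequence, among them the highest scores of the class, 727 injured and 494 sham at a mitochondrial position. The next, 46782 bp from Smgc with 336 injured and 309 sham, lay 366 bp from a wild-type summit. Within 10 kb of another of the loci were 214 (6.24%), and within 100 kb 1065 (31.0%). The longest chain at 100 kb held 7, at 4930467E23Rik on chromosome 8, of which 1 had no wild-type summit within 10 kb. Ogdh, an enzyme of the citric acid cycle, had 6 within 50 kb, all with wild-type summits within 10 kb. Pcdhac1 had 4, all with none, beside 0 of the wild-type class.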

How the data were processed

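The authors deposited 1 list of peak summits per group, each line with a position and a score on a −log10 scale. Per the submitters' processing notes, Bowtie2, MACS2 and the mm10 build were used. Not given in the sources used here are their versions, the read filters, the pooling of the 3 libraries, any shift of positions for the transposase, and whether the score is of a p-value or a q-value. The smallest score of each list is just above 1.30, which is −log10 of 0.05.

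Summits were chained within 200 bp into loci (Python 3.11.15, pandas 2.3.3, scipy 1.17.1), and the steps were checked on simulated lists. A locus lies at its highest-scoring summit. Genes and promoters came from RefSeq tables of GRCm38.p6, the build of mm10. The gene table gives no strand, exons or introns, so either gene end was used, and "near a gene" means within 50 kb of an end. All symbols of the lists matched. With 1 list per group no test was possible: counts, medians and 95% Wilson intervals are descriptions, loci are not replicates, and the labels do not say whether libraries came from separate animals. Members and gene lists were chosen with earlier results of these data known.

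Named were the 10 loci of highest lower score with no wild-type summit within 10 kb, the 10 such loci at coding gene ends and the 10 in promoters (both with none within 1 kb), the strongest loci of each list, the genes with most loci, and Silc1 with Sox11. Names outside this rule were chosen after their values were seen, as were the gene families. Alternatives were other joining distances, score minimums, equal list lengths, autosomes only, and other distances to genes. Some named genes are not reported here.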

Additional observations from a re-analysis of the deposited data

How the results depend on the processing

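No paired analysis was possible because each group has 1 list with no replicate columns, and for the same reason no replicate could be left out. With a joining distance of 50 bp, 1383 of 3268 loci had no wild-type summit within 1 kb and 942 had none within 10 kb. At that distance 21.5% lay at gene ends and the ratio of Silc1-/- to wild-type loci was 1.31. At 500 bp the gene-end share was 9.22% and the ratio 2.15, and at 1000 bp 8.06% and 2.36. With scores of at least 5 there were 1004 loci, 775 with no wild-type summit within 1 kb and 623 within 10 kb, 14.1% at gene ends, and the ratio turned to 0.891. With scores of at least 10 these were 262, 177, 156, 17.6% and 0.362. With equal list lengths they were 1816, 1446, 1127, 14.2% and 0.899. A gene end within 500 bp gave 8.83% and within 2500 bp 19.7%. Among loci inside coding genes, the share in genes of over 100 kb was 51.0%, 61.0% and 61.4% at joining distances of 50, 500 and 1000 bp and 48.8% with scores of at least 10. The cause was not tested. Of the counts of genes per list under the alternatives, 86 stayed within the interval of the reported count and 49 did not, and with no wild-type summit within 10 kb it was 104 and 31. The counts of loci at joining distances of 500 and 1000 bp, and on autosomes alone, stayed within 1.5 times those reported. Read depth is unknown and limits every statement that a summit is absent from a list.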
